A study of Mus musculus with 20 samples.

Results

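The genes described here are 10 components of bone morphogenetic protein (BMP) signalling in whole mouse lung: the ligand genes Bmp2, Bmp4 and Bmp6, the inhibitory SMAD genes Smad6 and Smad7, the receptor-regulated SMAD genes Smad1 and Smad5, and the target genes Id1, Id2 and Id3. They were taken by name from the 30691 named genes of the deposited table, each matched 1 row, and all 10 passed the filter on low values that left 21658 genes for testing. RNA sequencing was done on whole lungs in 4 groups: 5 libraries from VIPKO mice in hypoxia (10% O2 for 4 weeks), 4 from VIPKO mice in normoxia (21% O2 for 4 weeks), 5 from WT mice in hypoxia (10% O2 for 4 weeks) and 6 from WT mice in normoxia (21% O2 for 4 weeks). By the series' title, VIPKO mice carry a deletion of the gene for vasoactive intestinal peptide (Vip), a peptide of nerve fibres that dilates vessels and airways, and the study set them beside C57BL/6 wild types (WT) in a series on pulmonary arterial hypertension. The genotype field of the labels says knockdown where the titles and the design text say knockout, and neither the allele, the background strain of the VIPKO mice, nor age or sex is given in the sources used here. The labels do not say that each library came from its own animal, so a p-value here reflects how far these samples spread, which may be technical.

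BMP ligands bind type I and type II receptors on the cell surface, the receptors phosphorylate SMAD1 and SMAD5, and these enter the nucleus with SMAD4 and raise transcription of target genes such as the ID genes, which encode inhibitors of basic helix-loop-helix factors. SMAD6 and SMAD7 are themselves induced by the pathway and feed back on it, SMAD6 mainly on BMP receptors and SMAD7 on both BMP and TGF-beta receptors. In the lung, endothelium is a prominent site of this signalling, and loss-of-function variants of the receptor gene BMPR2 are the best known cause of heritable pulmonary arterial hypertension in humans.

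Some libraries stood apart before any comparison. Vip itself was near the floor in all groups, with a median signal of 2.17 in VIPKO hypoxia, 4.79 in VIPKO normoxia, 2.37 in WT hypoxia and 3.64 in WT normoxia, while the library labelled VIPKO hypoxia 4 had the most, 106, and 1 WT normoxia library had 93.004, so Vip RNA does not bear out the genotype labels. The library labelled WT hypoxia 5 held skeletal muscle RNA (summed marker signal 34709, against at most 1065 elsewhere) and the library labelled VIPKO hypoxia 3 held thymus RNA (17178, against at most 92.2 elsewhere). Summed mitochondrial ribosomal RNA ran from 4506 to 9415 in VIPKO hypoxia and 12034 to 27208 in VIPKO normoxia. In WT it ran from 396 to 7058 in hypoxia and 97.7 to 2075 in normoxia. It differed without overlap with genotype in normoxia and with oxygen in VIPKO, while the genotypes overlapped in hypoxia. The endothelial markers Pecam1 and Cdh5 were abundant in every group (12429 and 14705 on average in VIPKO hypoxia, and 13537.5 and 18627 in WT normoxia). Depth was estimated at 4.96 to 56.7 M reads (median 17.8 M), and the lowest estimated count of any member was 47.0 reads, for Bmp2. Values below are the authors' normalized signal unless stated, and changes are log2 fold changes ± SE on the log2(signal + 1) scale from limma, with p-values adjusted by the Benjamini-Hochberg method over all 21658 genes and a threshold of 0.05.

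The promoter windows of 3 members are printed because 2 of them, Smad6 and Bmp6, had negative changes in each of the 4 comparisons of groups. The other, Id3, is a target gene that passed no test in the main limma fit of all libraries. Each window holds 250 bases before and 50 after the start given by RefSeq (GRCm38.p6), which for Bmp6 and Id3 lies inside the gene as GENCODE draws it. Capitals mark 4 sets of letters on either strand. CAGAC and GGCGCC occur in DNA bound by SMAD proteins. ACGTG is a core bound by hypoxia-inducible factors. GCGTG is the core bound by the aryl hydrocarbon receptor and can also serve hypoxia-inducible factors. The Smad6 window lies at chr9:64022010-64022309 on the minus strand, the Bmp6 window at chr13:38345466-38345765 on the plus strand and the Id3 window at chr4:136143572-136143871 on the plus strand.
Smad6: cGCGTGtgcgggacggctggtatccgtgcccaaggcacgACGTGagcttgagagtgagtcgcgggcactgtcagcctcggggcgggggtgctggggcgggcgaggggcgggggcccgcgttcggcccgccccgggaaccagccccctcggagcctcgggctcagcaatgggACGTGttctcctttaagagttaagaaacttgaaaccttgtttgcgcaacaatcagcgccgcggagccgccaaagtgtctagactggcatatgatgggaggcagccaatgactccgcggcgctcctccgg
Bmp6: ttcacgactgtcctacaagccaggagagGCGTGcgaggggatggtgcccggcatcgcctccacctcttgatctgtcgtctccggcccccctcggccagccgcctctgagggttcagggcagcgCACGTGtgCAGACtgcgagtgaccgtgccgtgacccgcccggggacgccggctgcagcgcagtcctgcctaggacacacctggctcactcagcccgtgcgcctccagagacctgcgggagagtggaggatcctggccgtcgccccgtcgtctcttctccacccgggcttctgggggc
Id3: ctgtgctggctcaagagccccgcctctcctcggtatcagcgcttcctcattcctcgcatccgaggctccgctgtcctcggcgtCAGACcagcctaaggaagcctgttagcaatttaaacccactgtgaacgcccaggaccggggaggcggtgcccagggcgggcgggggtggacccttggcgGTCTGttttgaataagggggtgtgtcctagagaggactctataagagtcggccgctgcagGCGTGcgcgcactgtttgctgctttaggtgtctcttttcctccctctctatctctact

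Positions are counted from the RefSeq start, with -1 the base just before it, and give the first base of each match. The Smad6 window held ACGTG at -211 and -79 and GCGTG at -249, with no CAGAC and no GGCGCC. The Bmp6 window held ACGTG on both strands, overlapping at -127 and -126, CAGAC at -119 and GCGTG at -222. The Id3 window held CAGAC at -167 and -68 and GCGTG at -8. Of all 32851 promoter windows of this length, 19.6% held ACGTG, 32.4% held GCGTG, 49.6% held CAGAC and 11.9% held GGCGCC, so each of these matches is common. GGCGCC followed after 5 bases by GTCT, the layout of the BMP response element, was in 24 of these windows (0.0731%) and in none of the 9 windows of the 7 members that could be matched. Matches describe letters only, and no binding was measured.

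Compared per kilobase of exon, the levels of the 10 genes spanned a wide range. In WT normoxia the mean signal per kilobase was 1596 ± 127 for Smad6, 1418 ± 235 for Id3, 1217 ± 317 for Id1, 1110 ± 174 for Bmp6, 1056 ± 99.3 for Smad7, 523 ± 46.9 for Bmp4, 387 ± 34.5 for Smad5, 256 ± 55.7 for Id2, 165 ± 13.5 for Smad1 and 39.6 ± 7.89 for Bmp2 (SD, n = 6). Smad6, Id3, Id1, Bmp6 and Smad7 followed each other with overlapping libraries there, whereas from Smad7 downward each gene lay above the next in every pair of libraries. In VIPKO hypoxia the order per kilobase began with Id3 at 1663 ± 289 and Id1 at 1556 ± 431, and Smad6, at 611 ± 174, stood below Smad7, at 823 ± 177 (SD, n = 5). Bmp2 was the least abundant per kilobase in both groups, at 70.0 ± 2.74 in VIPKO hypoxia (SD, n = 5).

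**Figure D1:**
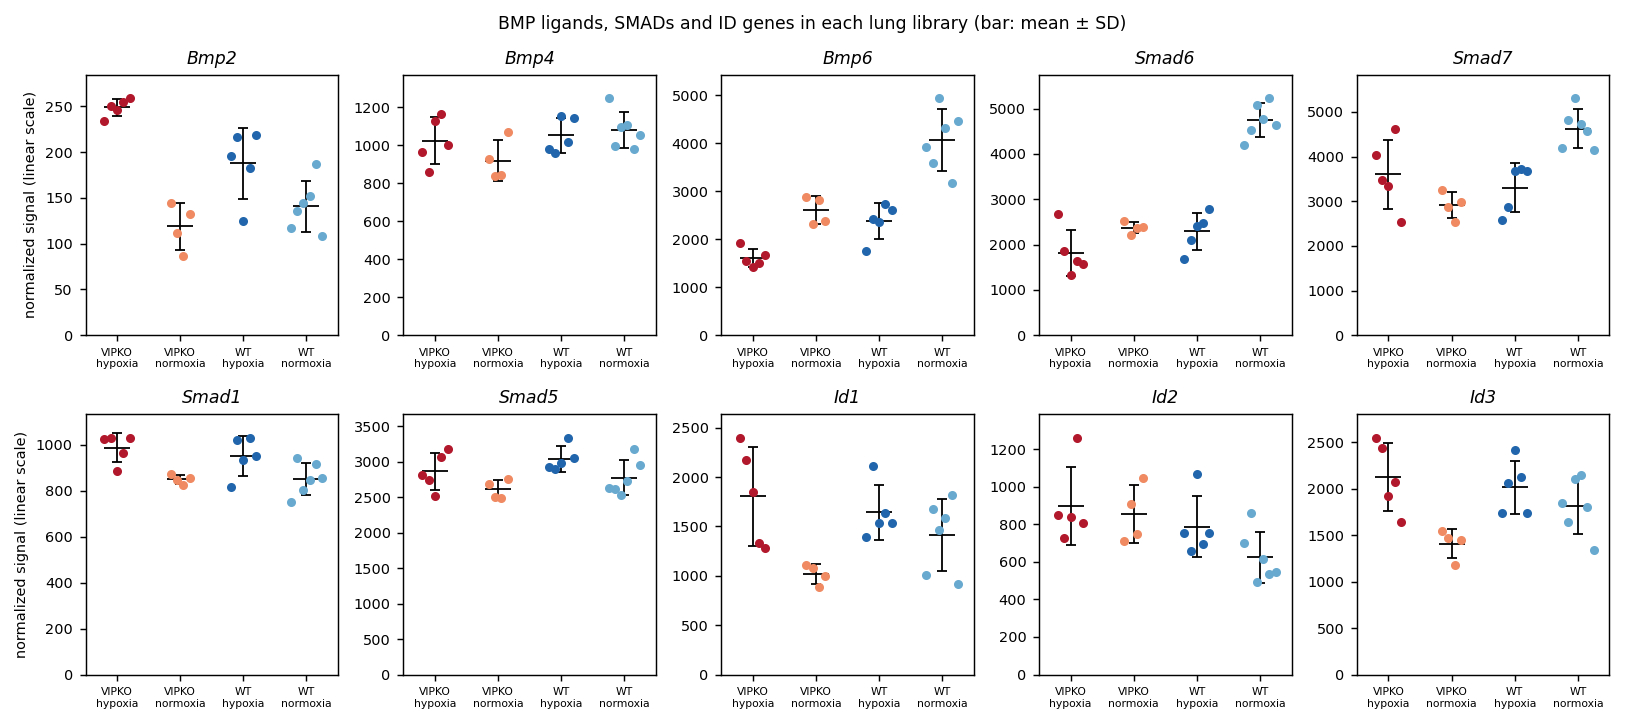
Normalized signal (linear scale from 0) of the 10 genes in each of the 20 libraries, as points by group, with bars for the group mean ± SD. In the Smad6 panel the 6 WT normoxia points, from 4209 to 5230, lie above all 14 points of the other groups, and in the Bmp2 panel the 5 VIPKO hypoxia points, from 234 to 259, lie above all others.

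Among the ligands, Bmp6 was lower whenever genotype or oxygen was changed. Bmp2 rose with hypoxia in VIPKO lungs, and Bmp4 passed no test in the main fit. Bmp6 encodes a ligand that signals to SMAD1 and SMAD5 and, in liver, induces hepcidin. The gene lies on chromosome 13, 38345107 to 38500302 (plus strand, GRCm38), and overlaps Txndc5 and 4930579J19Rik, whose reads could not be told apart where the genes overlap if strand was not used in counting, which the sources used here do not give. The Bmp6 signal in VIPKO hypoxia libraries 1 to 5 was 1916, 1545, 1423, 1499 and 1676. VIPKO normoxia libraries 1 to 4 had 2878, 2323, 2820.4 and 2388. WT hypoxia libraries 1 to 5 had 1759.7, 2416, 2359, 2733 and 2604. In WT normoxia it ran from 3168 to 4935 with a median of 4126. Every WT normoxia library therefore lay above every library of the other groups, and every VIPKO hypoxia library lay below every VIPKO normoxia library, but VIPKO hypoxia and WT hypoxia overlapped through the library labelled WT hypoxia 1.

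The change of Bmp6 was -0.63 ± 0.13 for VIPKO against WT in normoxia (adjusted p = 0.00720), -0.78 ± 0.12 for hypoxia against normoxia in WT (adjusted p = 0.00155), -0.69 ± 0.13 for hypoxia against normoxia in VIPKO (adjusted p = 0.0114) and -0.55 ± 0.13 for VIPKO against WT in hypoxia (adjusted p = 0.0330), so it fell in all 4. The difference between the oxygen effects of the 2 genotypes was 0.08 ± 0.18, with a 95% interval from -0.29 to 0.46 (adjusted p = 0.868). Mean Bmp6 signal in VIPKO hypoxia was 0.396 times that in WT normoxia, which differ in both factors, and their ratio is given with no test. The fall in VIPKO against WT in hypoxia lost its call when any 1 of 6 libraries was left out (VIPKO hypoxia 2, 4 or 5, WT hypoxia 2, 3 or 5), with adjusted p up to 0.0854. That in hypoxia against normoxia in VIPKO lost it without VIPKO normoxia 3 (adjusted p = 0.0621).

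Bmp2, whose product patterns the early embryo and bone and is also made by lung endothelium, had signals of 234, 251, 246, 255 and 259 in VIPKO hypoxia libraries 1 to 5. VIPKO normoxia libraries 1 to 4 had 145, 112, 86.5 and 133. WT hypoxia libraries 1 to 5 had 196, 217, 125, 183 and 219, and in WT normoxia they ran from 109 to 187 with a median of 140.1. All 5 VIPKO hypoxia libraries were above all 15 others, and the remaining 3 groups overlapped. Bmp2 rose by 1.08 ± 0.18 with hypoxia in VIPKO (adjusted p = 0.00374), a ratio of means of 2.09. In WT the change with hypoxia was 0.41 ± 0.16 (adjusted p = 0.0915), and for VIPKO against WT it was 0.43 ± 0.17 in hypoxia (adjusted p = 0.177) and -0.25 ± 0.17 in normoxia (adjusted p = 0.400). The oxygen effects of the 2 genotypes differed by 0.68 ± 0.24, with an interval from 0.17 to 1.19, which did not pass over all genes (adjusted p = 0.212). Bmp2 lies on chromosome 2, 133552159 to 133562885 (plus strand, GRCm38).

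Bmp4, a ligand needed for lung bud outgrowth, averaged 1023 ± 124 in VIPKO hypoxia, 918 ± 108 in VIPKO normoxia, 1052 ± 91.8 in WT hypoxia and 1080.3 ± 96.7 in WT normoxia (SD, n = 5, 4, 5 and 6). These groups overlapped in every comparison, and the changes ran from -0.24 ± 0.10 (VIPKO against WT in normoxia, adjusted p = 0.135) to 0.15 ± 0.10 (hypoxia against normoxia in VIPKO, adjusted p = 0.535). The 3 ligand genes thus differed among themselves in both size and direction of change.

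Both inhibitory SMAD genes were highest in WT normoxia. Smad6 (chromosome 9, 63953076 to 64022059, minus strand, GRCm38) had signals of 2670.3, 1868, 1329, 1630.2 and 1572 in VIPKO hypoxia libraries 1 to 5. VIPKO normoxia libraries 1 to 4 had 2511, 2223, 2357 and 2396. WT hypoxia libraries 1 to 5 had 1688, 2105, 2418, 2468 and 2780.2. In WT normoxia they ran from 4209 to 5230.5 with a median of 4698. The 6 WT normoxia libraries stood clear of the other 14, which overlapped with each other. Smad6 fell by 1.00 ± 0.15 in VIPKO against WT in normoxia (adjusted p = 0.00194) and by 1.06 ± 0.14 in hypoxia against normoxia in WT (adjusted p = 0.000649). For hypoxia against normoxia in VIPKO the change was -0.43 ± 0.15 (adjusted p = 0.226), and for VIPKO against WT in hypoxia it was -0.36 ± 0.14 (adjusted p = 0.181). Both of these passed when the library labelled VIPKO hypoxia 1, the highest of its group, was left out (adjusted p = 0.0418 and 0.0487).

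Smad7 (chromosome 18, 75367529 to 75395935, plus strand, GRCm38) had signals of 4026, 3483, 3349, 4611 and 2543 in VIPKO hypoxia libraries 1 to 5. VIPKO normoxia libraries 1 to 4 had 3254, 2867, 2542 and 2981. WT hypoxia libraries 1 to 5 had 2581, 2869.6, 3674, 3732 and 3669.96. In WT normoxia they ran from 4138 to 5305 with a median of 4647. VIPKO normoxia and WT hypoxia each lay wholly below WT normoxia, while VIPKO hypoxia reached into its range. Smad7 fell by 0.67 ± 0.14 in VIPKO against WT in normoxia (adjusted p = 0.00763) and by 0.50 ± 0.13 in hypoxia against normoxia in WT (adjusted p = 0.0177), the last not without WT hypoxia 1 (adjusted p = 0.0535). The change was 0.29 ± 0.14 for hypoxia against normoxia in VIPKO (adjusted p = 0.405) and 0.11 ± 0.13 for VIPKO against WT in hypoxia (adjusted p = 0.690). So a falling direction with hypoxia was seen in WT and not in VIPKO lungs.

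That difference between genotypes was tested directly. It was 0.78 ± 0.19 for Smad7 (interval 0.38 to 1.18, adjusted p = 0.0774) and 0.64 ± 0.21 for Smad6 (interval 0.21 to 1.07, adjusted p = 0.164), so neither passed over all genes. Of the 10 members 0 passed this limma test, and over all genes 0.282% passed. An unadjusted limma p under 0.05 was seen for 4 of the members and for 3082 of the 21658 genes. Both Smad6 and Smad7 passed when the 2 libraries with muscle or thymus RNA were left out (Smad6 0.81 ± 0.19, adjusted p = 0.0421, and Smad7 0.84 ± 0.21, adjusted p = 0.0497) and with library weights (adjusted p = 0.0214 for Smad6 and 0.0172 for Smad7). Those settings also called more genes in all, 304 of 21506 and 2228 of 21658, against 61 in the main fit. Smad7 also passed without any 1 of 3 libraries, VIPKO hypoxia 3, VIPKO hypoxia 5 or WT hypoxia 4, with an adjusted p as low as 0.0330. Other settings called 0 genes for this difference by limma. They were the replicate block, mitochondrial ribosomal RNA as a covariate, and the joint omission of 3 VIPKO libraries described below. An unadjusted p under 0.05 was seen there for 2670, 2118 and 1867 genes.

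The receptor-regulated SMAD genes moved little. Smad1, which carries the BMP signal to the nucleus, averaged 987 ± 62.6 in VIPKO hypoxia, 849.8 ± 19.3 in VIPKO normoxia, 950.4 ± 86.3 in WT hypoxia and 852 ± 70.0 in WT normoxia (SD, n = 5, 4, 5 and 6). Its changes ran from 0.00 ± 0.08 in VIPKO against WT in normoxia, with an interval from -0.17 to 0.17, to 0.21 ± 0.08 in hypoxia against normoxia in VIPKO (adjusted p = 0.276), where all 5 hypoxia libraries were above all 4 normoxia libraries. Smad5, its close relative with the same task, averaged 2863 ± 260.1 in VIPKO hypoxia, 2609 ± 136 in VIPKO normoxia, 3037 ± 179 in WT hypoxia and 2773 ± 247 in WT normoxia (SD, n = 5, 4, 5 and 6). The changes of Smad5 ran from -0.09 ± 0.08 (VIPKO against WT in hypoxia) to 0.13 ± 0.07 (hypoxia against normoxia in WT), and none passed.

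No ID gene passed a test in the main fit, and Id1 and Id3 had their highest means in VIPKO hypoxia and their lowest in VIPKO normoxia. In the fit with a replicate block, which also used all libraries, Id3 passed with hypoxia in VIPKO, as given below. Id1 (chromosome 2, 152736251 to 152737410, plus strand, GRCm38), a gene used as a readout of BMP signalling in endothelium, had signals of 2400.01, 2174, 1849, 1327 and 1277 in VIPKO hypoxia libraries 1 to 5. VIPKO normoxia libraries 1 to 4 had 1106, 1080.45, 885 and 1001. WT hypoxia libraries 1 to 5 had 1396, 2115, 1530.1, 1640.4 and 1531. In WT normoxia they ran from 919 to 1817 with a median of 1527. VIPKO normoxia was the group with the lowest mean and the smallest spread, and all VIPKO hypoxia libraries lay above it, with a ratio of means of 1.77. Id1 changed by 0.78 ± 0.20 with hypoxia in VIPKO (interval 0.36 to 1.21), which did not pass over all genes (adjusted p = 0.0739) and did without VIPKO hypoxia 5 (adjusted p = 0.0440). It changed by 0.25 ± 0.18 with hypoxia in WT (adjusted p = 0.357), and VIPKO against WT gave -0.43 ± 0.20 in normoxia (adjusted p = 0.174) and 0.11 ± 0.19 in hypoxia (adjusted p = 0.808).

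Id3 (chromosome 4, 136143497 to 136145755, plus strand, GRCm38), a second ID gene responsive to BMP ligands, had signals of 2551, 2433, 1926, 2073 and 1647 in VIPKO hypoxia libraries 1 to 5. VIPKO normoxia libraries 1 to 4 had 1539.9, 1475, 1182 and 1445. WT hypoxia libraries 1 to 5 had 1734, 2057, 2416, 2130.2 and 1743. In WT normoxia they ran from 1339 to 2149.7 with a median of 1822. As for Id1, all VIPKO hypoxia libraries were above all VIPKO normoxia libraries (ratio of means 1.51), and the other comparisons overlapped. Id3 changed by 0.58 ± 0.14 with hypoxia in VIPKO (adjusted p = 0.0560), past the threshold without VIPKO hypoxia 5 or WT normoxia 6 (adjusted p as low as 0.0292), and by 0.16 ± 0.13 with hypoxia in WT (adjusted p = 0.407). VIPKO against WT gave -0.35 ± 0.14 in normoxia (adjusted p = 0.117) and 0.07 ± 0.14 in hypoxia (adjusted p = 0.820). In normoxia the changes of Id1 and Id3 thus had the same sign as those of Smad6 and Smad7, with unadjusted p of 0.0399 and 0.0192, and whether the ID and inhibitory SMAD genes differ was not tested.

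Id2, which is also expressed in lymphoid cells and epithelium, averaged 897 ± 209 in VIPKO hypoxia, 854 ± 154 in VIPKO normoxia, 786 ± 162 in WT hypoxia and 625.1 ± 136 in WT normoxia (SD, n = 5, 4, 5 and 6). Its largest change was 0.46 ± 0.17 for VIPKO against WT in normoxia (adjusted p = 0.0981), in the other direction from Id1 and Id3 there, and it passed without WT normoxia 2 (adjusted p = 0.0371). Id2 passed no test in the main fit.

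**Figure D2:**
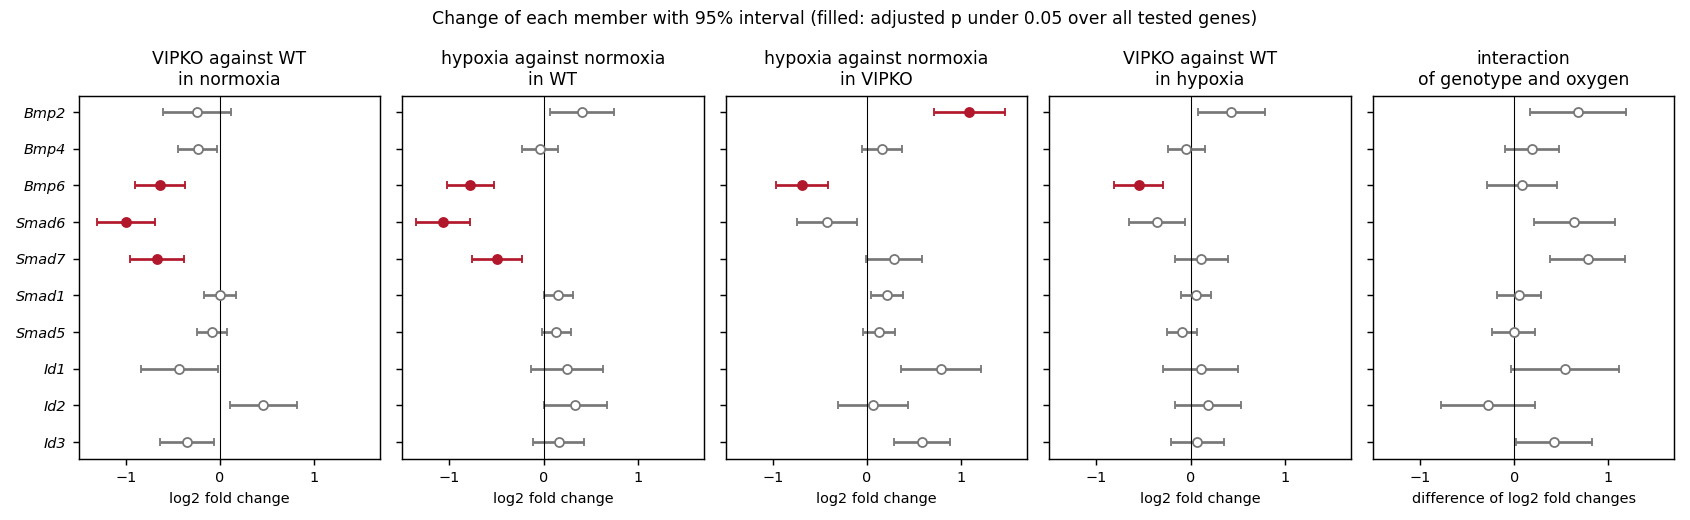
Log2 fold change of each of the 10 genes with its 95% interval, in 4 comparisons and, in the last panel, the difference between the oxygen effects of the 2 genotypes. Filled red points passed an adjusted p under 0.05 over all 21658 genes. Bmp6 is filled in 4 panels, Smad6 and Smad7 in the first 2, Bmp2 in the third, and no point in the last.

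Counted together, 3 of the 10 members were called in VIPKO against WT in normoxia, where 8.65% of all tested genes were, and all 3 fell, where 3.96% of all genes were called and lower. In hypoxia against normoxia in WT 3 were called, against 14.7% of all genes, and again all 3 fell, against 6.77% called and lower. In hypoxia against normoxia in VIPKO 2 were called, Bmp2 upward and Bmp6 downward, against 0.997% of all genes. In VIPKO against WT in hypoxia 1 was called, against 1.62%. Groups did not overlap for 3, 3, 5 and 1 members in these 4 comparisons, in that order, against 9.87%, 7.94%, 5.13% and 3.76% of all genes. The median change of the members was -0.30, 0.15, 0.18 and 0.06, and that of all tested genes lay between -0.01 and 0.02. VIPKO against WT in normoxia and hypoxia against normoxia in WT share the 6 WT normoxia libraries, and the WT normoxia level enters both, so the same 3 genes falling in each is not independent evidence.

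The 3 calls in VIPKO against WT in normoxia held in each fit with 1 library left out, but not with 3 left out together. Leaving out the libraries labelled VIPKO normoxia 2, VIPKO normoxia 3 and VIPKO hypoxia 2 together left no gene of 21204 called in that comparison by limma (3056 had an unadjusted p under 0.05), and the changes were -0.95 ± 0.20 for Smad6 (adjusted p = 0.0880), -0.62 ± 0.17 for Bmp6 (adjusted p = 0.159) and -0.57 ± 0.18 for Smad7 (adjusted p = 0.190), of about the same size as with all libraries. That fit kept only VIPKO normoxia 1 and VIPKO normoxia 4 of their group, and no reason for picking these 3 libraries is given here. The same 3 libraries out gave 0.84 ± 0.23 for Bmp2 (adjusted p = 0.210) and -0.70 ± 0.18 for Bmp6 (adjusted p = 0.179) with hypoxia in VIPKO. With mitochondrial ribosomal RNA as a covariate no gene was called in VIPKO against WT in normoxia (2101 had an unadjusted p under 0.05), with Smad6 at -1.24 ± 0.27, Bmp6 at -0.75 ± 0.24 and Smad7 at -0.78 ± 0.26 (adjusted p = 0.412, 0.412 and 0.424). This RNA differed with genotype without overlap in normoxia, so this RNA and genotype cannot be told apart there. It also differed with oxygen without overlap in VIPKO, so this RNA and oxygen cannot be told apart in those lungs. In WT the 3 falls passed with this covariate (adjusted p = 0.000936 for Smad6, 0.00374 for Bmp6 and 0.0336 for Smad7). Without the library labelled VIPKO hypoxia 4, where Vip was highest, Bmp2 rose by 1.08 ± 0.20 (adjusted p = 0.0123) and Bmp6 changed by -0.67 ± 0.14 (adjusted p = 0.0363) with hypoxia in VIPKO.

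Because Smad6, Smad7, Bmp6 and the ID genes are prominent in endothelium, and in whole lung fewer cells of a type and less RNA per cell cannot be told apart, they were also set against 12 pan-endothelial markers, among them Pecam1, Cdh5 and Tie1. Of these markers 3 fell in VIPKO against WT in normoxia (Cldn5, Tie1 and Robo4), 1 rose and 1 fell in hypoxia against normoxia in WT (Cd34 and Cdh5), and 0 passed limma's test in the other comparisons (2 in each had an unadjusted p under 0.05). Their summed signal ran from 52105 to 65504 in VIPKO hypoxia, 52904 to 58851 in VIPKO normoxia, 46478 to 75332 in WT hypoxia and 57559 to 75731 in WT normoxia. Their mean log2 level differed by -0.24 in VIPKO against WT in normoxia (exact permutation p = 0.0238), by -0.11 in hypoxia against normoxia in WT (p = 0.398), by 0.15 in hypoxia against normoxia in VIPKO (p = 0.127) and by 0.01 in VIPKO against WT in hypoxia (p = 0.921, exact permutation tests, 2-sided).

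Relative to these markers, Smad6, Smad7 and Bmp6 remained lower in VIPKO normoxia and in WT hypoxia than in WT normoxia. In log2 units relative to the marker mean, Smad6 averaged -0.50 ± 0.02 in VIPKO normoxia (n = 4), -0.70 ± 0.16 in WT hypoxia (n = 5) and 0.26 ± 0.16 in WT normoxia (SD, n = 6). The differences were -0.75 for VIPKO against WT in normoxia (exact permutation p = 0.00476, the smallest that 210 splits allow) and -0.96 for hypoxia against normoxia in WT (exact p = 0.00216, the smallest that 462 splits allow). Smad7 differed by -0.43 (exact p = 0.00952) and -0.39 (exact p = 0.00866) in these 2 comparisons. Bmp6 differed by -0.39 in VIPKO against WT in normoxia (exact p = 0.0190), by -0.67 in hypoxia against normoxia in WT (exact p = 0.00216), by -0.84 in hypoxia against normoxia in VIPKO (exact p = 0.00794) and by -0.56 in VIPKO against WT in hypoxia (exact p = 0.00794, the smallest that its 252 splits allow). These 8 differences passed a Benjamini-Hochberg adjusted p under 0.05 over the 20 exact tests run on 5 genes (adjusted p from 0.0216 to 0.0476), and the tests of Id1 and Id3 did not. Smad6, Smad7 and Bmp6 had already been called by limma in these comparisons on the same libraries, so these passes are not independent support. The Bmp6 difference between VIPKO and WT in normoxia missed the adjusted threshold when any 1 of 13 of the 20 libraries was left out. VIPKO hypoxia 2, 3, 4 and 5 are among the 13 but not in that comparison, so leaving them out changed only the adjustment. The Bmp6 difference between hypoxia and normoxia in VIPKO missed it when any 1 of its 9 libraries was left out. Fewer libraries allow fewer splits, which raises the smallest p that an exact test can give. These Bmp6 differences kept their sign, at -0.45 to -0.34 and -0.90 to -0.79. The Smad7 difference between VIPKO and WT in normoxia missed the adjusted threshold without VIPKO normoxia 3 (adjusted p = 0.0893). Id1 differed by 0.64 (exact p = 0.0476, adjusted p = 0.0866) and Id3 by 0.43 (exact p = 0.0317, adjusted p = 0.0705) in hypoxia against normoxia in VIPKO.

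The choice of markers mattered for the size of these differences. Of 10 capillary and vein markers 1 rose and 5 fell in hypoxia against normoxia in WT, with a median change of -0.45. Against this list the Smad7 difference there was 0.03 in place of -0.39. The same marker mean is subtracted from every member, so the differences of Smad6 and Bmp6 there move toward 0 by the same amount. The summed signal of that list ran from 29547 to 40045 in VIPKO hypoxia, 33629 to 39608 in VIPKO normoxia, 27643 to 38458 in WT hypoxia and 41411 to 51623 in WT normoxia. Airway epithelial markers moved the other way, as 8 of 10 rose in VIPKO against WT in normoxia and 6 of 10 in hypoxia against normoxia in WT. The airway sum ran from 228903 to 361173 in VIPKO hypoxia, 271565 to 475362 in VIPKO normoxia, 192397 to 469698 in WT hypoxia and 169521 to 237722 in WT normoxia. Of 8 alveolar type 2 markers 7 rose in hypoxia against normoxia in WT and 1 in VIPKO against WT in normoxia, with sums from 299991 to 488179 in VIPKO hypoxia, 260659 to 351225 in VIPKO normoxia, 298322 to 495750 in WT hypoxia and 175271 to 346890 in WT normoxia.

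Adipocyte and macrophage markers were also higher in both comparisons in which Smad6, Smad7 and Bmp6 fell. Of 8 adipocyte markers 2 rose in VIPKO against WT in normoxia (median change 1.92 over the list) and 6 in hypoxia against normoxia in WT (median change 4.11), the largest median shift of the cell type lists in each. Retn, the resistin gene of mouse adipocytes, rose by 3.25 ± 0.73 (adjusted p = 0.0127) and by 4.98 ± 0.69 (adjusted p = 0.000817) in these comparisons. The adipocyte sum ran from 594.6 to 4359 in VIPKO hypoxia, 418 to 1907 in VIPKO normoxia, 697 to 17257 in WT hypoxia, where the library with skeletal muscle RNA was highest, and 89.7 to 442 in WT normoxia. Of 10 macrophage markers 3 rose in each of the 2 comparisons (median changes 0.29 and 0.50), where 8.65% and 14.7% of all genes were called. Their sum ran from 18698 to 53941 in VIPKO hypoxia, 11072 to 81074 in VIPKO normoxia, 13651 to 25275 in WT hypoxia and 7743 to 11423 in WT normoxia. In VIPKO normoxia the highest sum was that of VIPKO normoxia 2, and the group median was 14529. The part of these shifts in the changes of the members was not tested.

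**Figure D3:**
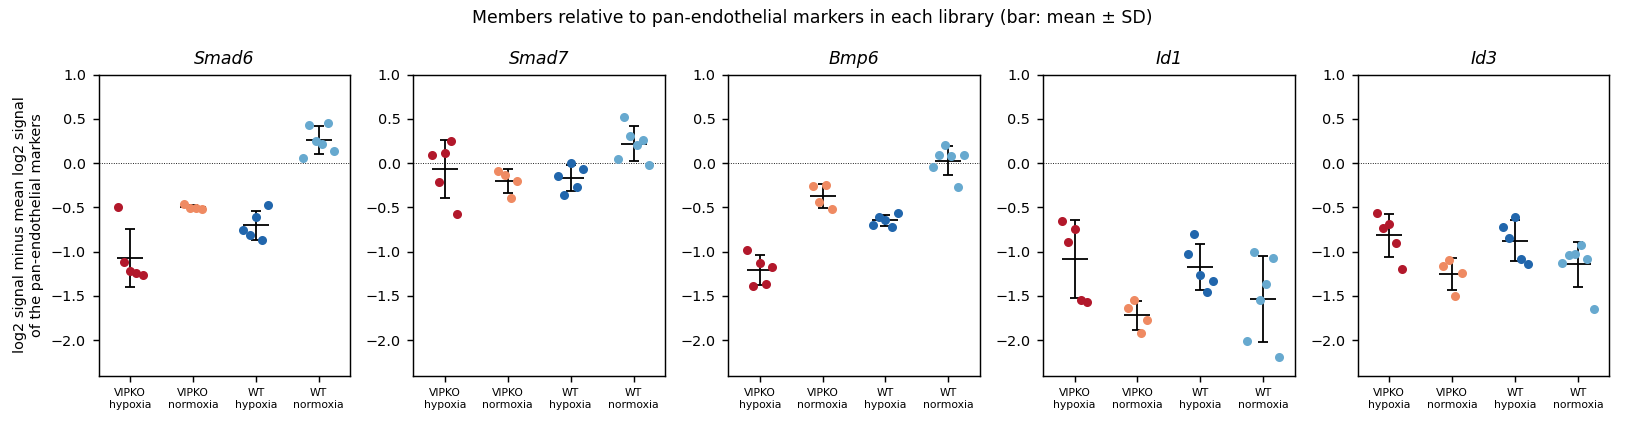
Log2 signal of Smad6, Smad7, Bmp6, Id1 and Id3 minus the mean log2 signal of 12 pan-endothelial markers in each library, by group, with the mean ± SD. Smad6 averages 0.26 in WT normoxia and lies below 0 in all other libraries, and Bmp6 averages -1.21 in VIPKO hypoxia, lower than in every other group.

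The rest of the pathway was read from lists of 55 other BMP genes, of which 47 were tested. In VIPKO against WT in normoxia 8 of 47 fell and 0 rose, in hypoxia against normoxia in WT 2 rose and 4 fell, in hypoxia against normoxia in VIPKO 5 rose and 0 fell, and in VIPKO against WT in hypoxia 1 rose and 1 fell. These are 17.0%, 12.8%, 10.6% and 4.26% of the 47, against 8.65%, 14.7%, 0.997% and 1.62% of all tested genes, so the count in hypoxia against normoxia in WT was no more than the share over all genes. Genes at levels too low to test were Bmp8a, Bmp10, Gdf5, Nog, Sostdc1 and Dlx3. Msx2 and Dlx2 did not match a single row of the deposited values, so they were not tested and no level is given for them.

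Of the receptors and co-receptors, Eng and Acvrl1 fell in both comparisons against WT normoxia. Eng encodes endoglin, an endothelial co-receptor, and averaged 5197 ± 994 in VIPKO hypoxia, 7123 ± 532 in VIPKO normoxia, 6119.8 ± 1238 in WT hypoxia and 10814 ± 466 in WT normoxia (SD, n = 5, 4, 5 and 6). It fell by 0.60 ± 0.13 in VIPKO against WT in normoxia (adjusted p = 0.0115) and by 0.85 ± 0.13 in hypoxia against normoxia in WT (adjusted p = 0.00124). Acvrl1, the endothelial type I receptor ALK1, fell by 0.43 ± 0.10 (adjusted p = 0.0183) and by 0.37 ± 0.10 (adjusted p = 0.0192) in the same comparisons, and Rgma, a co-receptor gene, fell by 0.38 ± 0.11 in the first (adjusted p = 0.0371). Bmpr2, the type II receptor gene, averaged 22938 ± 4733 in VIPKO hypoxia, 27717 ± 2389 in VIPKO normoxia, 22848 ± 2820.4 in WT hypoxia and 28618 ± 4476 in WT normoxia (SD, n = 5, 4, 5 and 6), and passed no test.

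Among other ligands, Gdf6 was the one that passed. It rose by 1.18 ± 0.23 with hypoxia in WT (adjusted p = 0.00539) and by 1.47 ± 0.26 with hypoxia in VIPKO (adjusted p = 0.00535), at low signals of 84.0 ± 13.6 in VIPKO hypoxia, 30.7 ± 9.71 in VIPKO normoxia, 55.4 ± 8.79 in WT hypoxia and 24.5 ± 6.10 in WT normoxia (SD, n = 5, 4, 5 and 6). Among antagonists, Fst, which encodes follistatin, a binder of activins and some BMPs, averaged 170.4 ± 37.6 in VIPKO hypoxia, 71.6 ± 12.7 in VIPKO normoxia, 75.2 ± 16.02 in WT hypoxia and 98.0 ± 4.77 in WT normoxia (SD, n = 5, 4, 5 and 6). It rose by 1.23 ± 0.19 with hypoxia in VIPKO (adjusted p = 0.00136) and by 1.17 ± 0.18 in VIPKO against WT in hypoxia (adjusted p = 0.00387). The oxygen effects of the 2 genotypes differed for Fst by 1.63 ± 0.25 (adjusted p = 0.0163). Crim1, which encodes a membrane protein that binds BMPs, fell by 0.27 ± 0.08 with hypoxia in WT (adjusted p = 0.0348).

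Other regulators changed in single comparisons. In VIPKO against WT in normoxia Smad3, the TGF-beta branch counterpart of Smad1, fell by 0.44 ± 0.09 (adjusted p = 0.00767) and Ski, a repressor of SMAD transcription, fell by 0.36 ± 0.09 (adjusted p = 0.0189). In hypoxia against normoxia in WT Smurf2, a ubiquitin ligase for SMADs and receptors, fell by 0.31 ± 0.09 (adjusted p = 0.0302), and Tob1, whose product restrains BMP signalling in osteoblasts, rose by 0.54 ± 0.15 (adjusted p = 0.0275). In VIPKO against WT in hypoxia Bambi, a decoy receptor, fell by 0.58 ± 0.14 (adjusted p = 0.0439).

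Of 9 tested target genes beyond Id1 to Id3, 3 fell in VIPKO against WT in normoxia and 3 rose with hypoxia in VIPKO. Atoh8, a transcription factor gene induced by BMP ligands in endothelium, averaged 402.4 ± 46.6 in VIPKO hypoxia, 252 ± 7.09 in VIPKO normoxia, 377 ± 36.8 in WT hypoxia and 415 ± 45.8 in WT normoxia (SD, n = 5, 4, 5 and 6). It fell by 0.71 ± 0.10 in VIPKO against WT in normoxia (adjusted p = 0.00194) and rose by 0.67 ± 0.11 with hypoxia in VIPKO (adjusted p = 0.00302), and the oxygen effects of the 2 genotypes differed by 0.81 ± 0.15 (adjusted p = 0.0291). Msx1, a homeobox target gene, fell by 0.75 ± 0.23 in VIPKO against WT in normoxia (adjusted p = 0.0461) and rose by 1.12 ± 0.24 with hypoxia in VIPKO (adjusted p = 0.0235). Gja5, the connexin 40 gene of arterial endothelium, fell by 0.88 ± 0.24 in the first (adjusted p = 0.0306), and Hey2, a transcriptional repressor gene of arterial cells, rose by 1.05 ± 0.25 in the second (adjusted p = 0.0487).

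**Figure D4:**
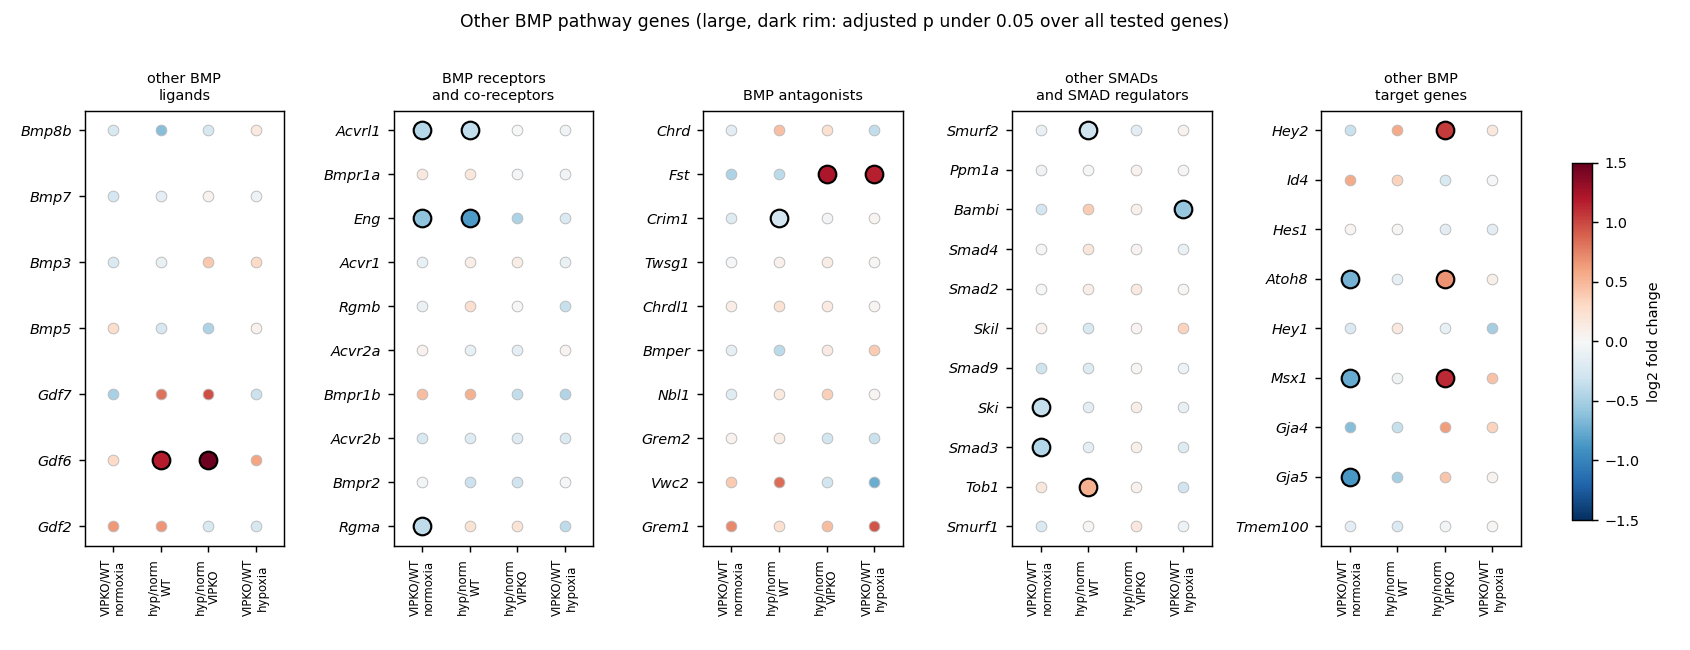
Log2 fold changes (colour, blue lower and red higher) of the 47 tested genes in 5 lists of other BMP pathway genes, in 4 comparisons; large dark-rimmed points passed an adjusted p under 0.05 over all genes. The large points of the receptor panel are blue and in the first 2 columns, and those of the target gene panel are blue in the first column and red in the third.

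The profile of Smad6 over the 20 libraries was most like that of Gnao1 among genes with a mean signal of at least 100, by the root mean square difference of log2 values after each gene's mean was subtracted (0.198). Eng (0.203), Bmp6 (0.236), Pcdh1 (0.247) and Tspan18 (0.275) came next. For Bmp6 they were Zfp641 (0.183), Eng (0.202), Pcdh1 (0.203), Gnao1 (0.210) and Slc16a9 (0.210). For Id1 they were Aplp1 (0.240), Id3 (0.248), Inf2 (0.260), Sema7a (0.274) and Orai1 (0.277). Eng, Pcdh1 and Gnao1 were thus in the first 5 for both Smad6 and Bmp6, and no gene was shared with Id1.

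Within groups, the deviations of each library from its group mean were related for some pairs, 5 of which were examined in all 20 libraries. Bmp6 and Smad6 had a Pearson r of 0.59 (permutation p = 0.00851, adjusted p = 0.0213) and a Spearman rho of 0.53 (permutation p = 0.0262, adjusted p = 0.0338), and r was 0.65 without the 2 libraries farthest on the Bmp6 axis. Id1 and Id3 had r of 0.61 (permutation p = 0.0166, adjusted p = 0.0277) and rho of 0.56 (permutation p = 0.0271, adjusted p = 0.0338), but r was 0.39 without the 2 farthest libraries, so this relation leaned on them. Smad6 and Smad7 had r of 0.56 (permutation p = 0.0774, adjusted p = 0.0967) and rho of 0.62 (permutation p = 0.0154, adjusted p = 0.0338), with r of 0.45 without 2. Id1 and Smad6 passed neither (r = 0.43, permutation p = 0.105, adjusted p = 0.105, rho = 0.48, permutation p = 0.0605, adjusted p = 0.0605, and r = 0.43 without 2). All labels name the same batch, so no value within a batch differs from these.

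Id1 is also an early response gene, and its deviations followed those of 14 immediate early genes, which are known to react within minutes to tissue handling (r = 0.70, permutation p = 0.00763, adjusted p = 0.0213, rho = 0.72, permutation p = 0.00398, adjusted p = 0.0199). Without the 2 libraries farthest in immediate early genes r was 0.71, and 16 of 20 libraries deviated in the same direction in both. Of these 14 genes 5 fell in VIPKO against WT in normoxia (Jun, Btg2, Dusp1, Ier2 and Zfp36), with a median change of -0.73 and 14 of 14 negative, and 0 passed limma's test in the other comparisons. With hypoxia in VIPKO, where Id1 and Id3 had their largest changes, the median change was 0.33, with 11 of 14 positive and 4 at an unadjusted p under 0.05. With hypoxia in WT it was -0.28, with 12 of 14 negative and 3 at an unadjusted p under 0.05, and in VIPKO against WT in hypoxia it was 0.07, with 9 of 14 positive and 0 at an unadjusted p under 0.05. The oxygen effects of the 2 genotypes differed by a median of 0.71, with 13 of 14 positive and 5 at an unadjusted p under 0.05. Their summed signal ran from 19367 to 44635 in VIPKO hypoxia, 16908 to 24259 in VIPKO normoxia, 22399 to 45426 in WT hypoxia and 20689.7 to 47974 in WT normoxia. Of the members only Id1 was set against these genes within groups. Smad6, Smad7 and Bmp6 were also called in VIPKO against WT in normoxia, where the immediate early genes fell. The part of these shifts in the levels of Id1, Id3 and the other members was not tested.

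**Figure D5:**
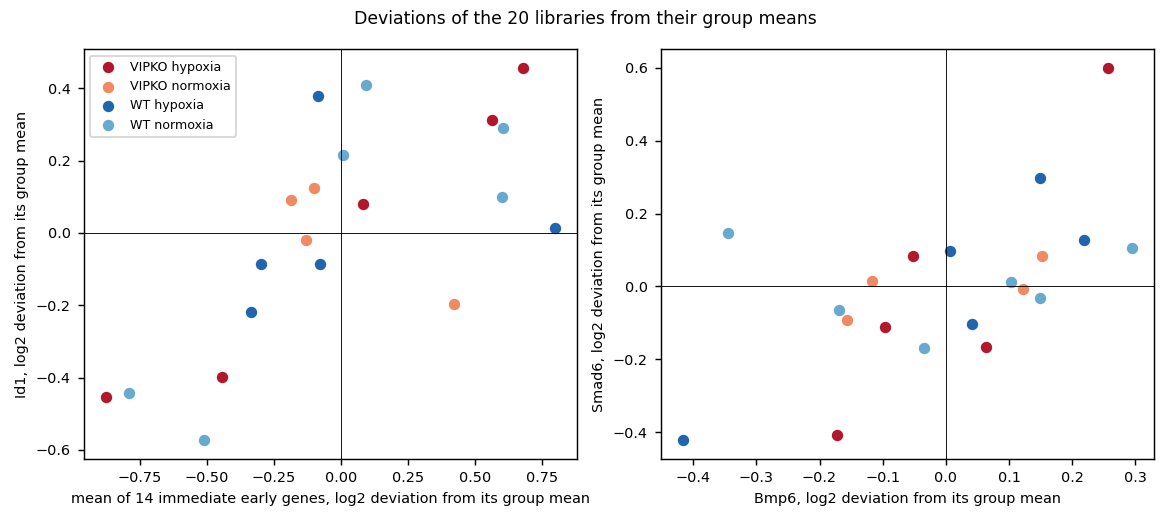
Deviation of each of the 20 libraries from its group mean on the log2 scale: Id1 against the mean of 14 immediate early genes (left), and Smad6 against Bmp6 (right), coloured by group. Points rise together in both panels (r = 0.70 and r = 0.59), with libraries of every group on both sides of 0.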

How the data were processed

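RNA from whole lungs was sequenced in 20 libraries of 4 groups. Per the labels' protocols, RNA was isolated with an RNeasy kit and libraries were made with a directional NEBNext kit. Partek and the mm10 build are named in the submitters' processing notes. No aligner, counting strand, normalization or Partek version is given there. The authors deposited 1 table of gene values that the labels call normalized counts. They are not whole numbers, so the deposited values are treated as a signal, the authors' normalized measure per gene, and no count model was run. The table has 30746 lines, and 55 without a gene name were left out. The value of 1 read was taken from the most frequent low value of a library, which gave the depths. Of low values, 81.0% to 88.8% lay within 0.05 reads of a whole number in 19 libraries and 40.3% in VIPKO hypoxia 2, so depth is an estimate. Intervals and depths do not cover errors beyond those named.

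Genes with a signal of at least 10 in at least 4 libraries were tested on log2(signal + 1), with pseudocount 1, by limma 3.58.1 in R 4.3.3, using a variance trend, in 1 fit of 4 group means with 5 contrasts. Intervals are at 95%. Exact permutation tests compared members relative to pan-endothelial markers, and relations within groups used 100000 permutations. Other steps used matplotlib 3.10.9, pandas 2.3.3, numpy 2.4.6 and Python 3.11.15. GENCODE vM21 gave coordinates and exon lengths on GRCm38, and RefSeq the promoters. No window was matched for Bmp2, Id1 and Smad7. The steps were tested on simulated data.

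The members, lists and tests were chosen with earlier results of these data known. All members are named. Other pathway genes are named if called in at least 1 comparison, at most 4 a list. The 5 genes most like Smad6, Bmp6 and Id1 are named. Libraries of 1 group differed by 0.49 to 1.15 (root mean square log2), so none held the same values as another of its group. This does not cover pairs from different groups, and it cannot tell whether 2 libraries came from 1 animal. Alternatives covered the pseudocount, filters, scaling, the variance trend, library weights, the groups in the fit, a replicate block, libraries left out and a covariate.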

Additional observations from a re-analysis of the deposited data

Results flagged for a closer look

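Id2 had 1 library far from its group in 2 of the 4 groups. It was 1262 in the library labelled VIPKO hypoxia 4, where the other 4 lay between 729 and 847, and 1068 in the library labelled WT hypoxia 3, where the other 4 lay between 660 and 756. In all, 40 sets of values (10 genes in 4 groups) were examined for a library whose gap to its nearest neighbour is a large share of the range of its group, and these 2 were found. Chance flags about 1 in 20 such sets. Without the library labelled VIPKO hypoxia 4, the change of Id2 with hypoxia in VIPKO was -0.07 ± 0.17.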

How the results depend on the processing

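In VIPKO against WT in normoxia 3 members were called. Library weights gave 6, and leaving out VIPKO normoxia 2, VIPKO normoxia 3 and VIPKO hypoxia 2 gave 0, as did mitochondrial ribosomal RNA as a covariate. In hypoxia against normoxia in VIPKO 2 were called, and 0 without those 3 libraries. In VIPKO against WT in hypoxia 1 was called, and 0 without a variance trend, with only the groups compared in the fit, with the replicate block, without WT hypoxia 5 and VIPKO hypoxia 3, without those 3 libraries, and with the covariate. For the interaction 0 were called, and 2 with library weights and without WT hypoxia 5 and VIPKO hypoxia 3. Over all tested genes, counts under these alternatives ran from 0 to 5448 in VIPKO against WT in normoxia (1873 as reported), 1539 to 6590 in hypoxia against normoxia in WT (3173), 44 to 717 in hypoxia against normoxia in VIPKO (216), 9 to 1926 in VIPKO against WT in hypoxia (350) and 0 to 2228 for the interaction (61), highest with library weights each time. The cause was not tested.

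Leaving out 1 library at a time, the members called ran from 1 to 4 in hypoxia against normoxia in VIPKO, 0 to 2 in VIPKO against WT in hypoxia and 0 to 1 for the interaction, and 5 to 8 tests relative to the endothelial markers passed (8 as reported). Smad6, Smad7 and Bmp6 in VIPKO against WT in normoxia, and Smad6 and Bmp6 in hypoxia against normoxia in WT, passed in all 20 such fits.

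Changes that were not called and lie near 0 changed sign in places. For VIPKO against WT in hypoxia, Bmp4 was 0.016 without the 3 libraries and ran from -0.093 to 0.016 over single libraries left out, Id1 ran from -0.0088 to 0.219, Id3 from -0.00013 to 0.158, and, relative to endothelial markers, Id1 from -0.011 to 0.217 and Id3 from -0.0061 to 0.156. For hypoxia in WT, Bmp4 ran from -0.074 to 0.0038, and Smad7 relative to capillary and vein markers was 0.027. For VIPKO against WT in normoxia, Smad1 was -0.00094 with median-of-ratios rescaling and -0.0030 with quantile normalization, and ran from -0.034 to 0.030. For hypoxia in VIPKO, Id2 was -0.0033 with quantile normalization and ran from -0.069 to 0.164, and Smad7 was -0.063 relative to the median endothelial marker. For the interaction, Smad1 was -0.00082 with the covariate, Smad5 was 0.0018 with rescaling, 0.059 with library weights, 0.043 without WT hypoxia 5 and VIPKO hypoxia 3 and 0.024 with the covariate, and ran from -0.044 to 0.041, and Bmp6 ran from -0.020 to 0.153.

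Same replicate numbers did not pair libraries: of 27 same-numbered pairs in different groups, 7 had a correlation of deviations over 0.1, with a median of -0.02. The replicate block gave 3, 3, 2, 0 and 0 members called in the 5 contrasts, in the order above with hypoxia in WT second. Of all 21658 genes it called 682, 1544, 90, 149 and 0 in the same order, so the interaction could call no member. With hypoxia in VIPKO, Id3 took the place of Bmp6 in that fit (adjusted p = 0.0488 and 0.0635). Depth limits Bmp2 most, at 47.0 estimated reads in its lowest library.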
